A study of Homo sapiens with 8 samples.

Results

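The unfolded-protein sensors of the endoplasmic reticulum (ER), the proteases that activate them and their closest partners are described here as 9 genes: ERN1, EIF2AK3, ATF6, ATF6B, XBP1, CREB3L2, MBTPS1, MBTPS2 and WFS1. They were taken by gene name from a table of 36474 genes, and all 9 passed the low-count filter that left 21071 genes for testing. The list of names was drawn up with earlier results of these data known, so it was not chosen blind to the values. RNA sequencing had been performed on LNCaP, an established line from a human prostate carcinoma metastasis, to find transcripts that respond to ASPN (asporin), a protein secreted by stromal cells. The cells had been starved for 6 to 12 h in medium free of serum and calcium. Treatment was with recombinant human ASPN at 100 ng/mL for 0 h (2 libraries), 12 h (3 libraries) or 24 h (3 libraries). The labels call all of them ASPN-treated, but the 0 h libraries are the baseline, with no time in ASPN. Untreated libraries at 12 h or 24 h were not analysed here, so ASPN and the added time in starvation medium cannot be told apart. The wells are separate cultures of 1 cell line, so p-values measure the spread between these cultures. Fewer cells expressing a gene and less of its RNA per cell cannot be told apart.

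When unfolded proteins gather in the ER, 3 membrane proteins sense them. ERN1 encodes IRE1-alpha, a kinase and RNase that cuts an intron out of XBP1 mRNA and so lets it encode an active transcription factor. EIF2AK3 encodes PERK, a kinase that phosphorylates eIF2-alpha and slows translation while ATF4 mRNA is still translated. ATF6 and its relative ATF6B are transcription factors held in the ER membrane until they travel to the Golgi, where the site-1 protease (MBTPS1) and the site-2 protease (MBTPS2) cut them free. CREB3L2 is another membrane-held factor released by the same proteases, and WFS1 is an ER membrane protein known to hold ATF6 signaling down. Secretory epithelial cells such as those of the prostate rely on this system to fold what they export.

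Of these genes, 6 were lower at 24 h than at 0 h, led by ERN1, and 3 did not pass the test, namely ATF6B and both proteases. Levels are given as CPM, which are counts put on 1 library size with TMM factors, and changes as log2 ratios between time points from the edgeR quasi-likelihood test, with a Benjamini-Hochberg adjusted p over all 21071 genes and a threshold of 0.05. In either direction, 11.6%, 16.3% and 2.72% of all tested genes passed at 12 h against 0 h, 24 h against 0 h and 24 h against 12 h. At 12 h, 5 of the 9 genes were lower than at 0 h, where 6.75% of all tested genes were. At 24 h, 6 of the 9 were lower than at 0 h, against 8.49% of all tested genes. Between 24 h and 12 h, 3 of the 9 were lower, against 1.61%. Since the 9 genes were chosen with earlier results of these data known, these counts and shares describe them and do not test them as a set. None of the 9 was higher in any comparison by edgeR (4.85%, 7.82% and 1.12% of all tested genes were). None had a higher value at an unadjusted p under 0.05 by edgeR, and none was higher by DESeq2. At an unadjusted p under 0.05 by edgeR, the counts of lower genes were 5, 6 and 5. The share of all tested genes at that unadjusted threshold was not computed, so these 3 counts are not read further. The median log2 change of the 9 genes was -0.19, -0.34 and -0.15 in the 3 comparisons, where the median over all tested genes was -0.00069, -0.0031 and 0.0035. With the fold change of at least 1.5 that the study also required, 0 of the 9 passed at 12 h (1.05% of all genes), 1 passed at 24 h against 0 h (2.45%), which was ERN1, and 0 passed between 24 h and 12 h (0.180%). In both comparisons with a count of 0, 5 of the 9 had an unadjusted p under 0.05 by edgeR before the fold was asked for. For this count too, the share of all tested genes was not computed.

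**Figure D1:**
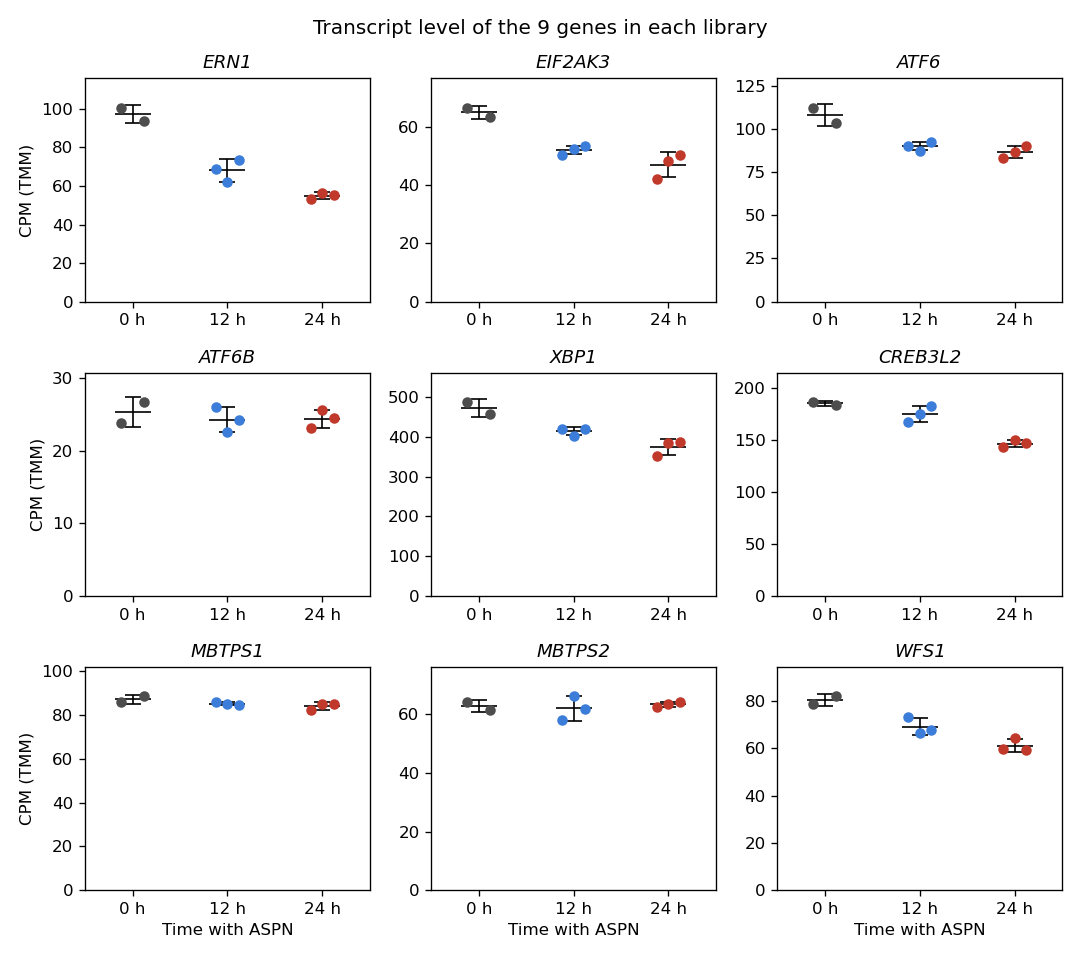
TMM-normalized CPM (vertical axes, from 0) of the 9 genes in each library by time with ASPN (horizontal axes); points are libraries, and bars are the mean and SD of 2 libraries at 0 h and 3 at 12 h and 24 h. ERN1 steps down from a mean of 97.3 to 68.1 and 55.0 CPM with no overlap between groups, while the points of MBTPS2 overlap at all 3 times.

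Library totals ran from 73406825 to 96962135 counts, and mitochondrial genes took 6.20% to 7.32% of them. All 9 markers of LNCaP and luminal prostate cells were present, with a summed level of 4725 to 4844 CPM at 0 h. This sum was 5285 to 5327 CPM at 12 h and 5277 to 5469 CPM at 24 h. The sums of both later groups thus lay above 0 h, but not every marker rose. The mean of KLK3 went from 965 CPM at 0 h to 1356 CPM at 12 h. KRT18 had a lower mean at both later times than at 0 h, and FOLH1 had a lower mean at 12 h only. The other markers of this list had higher means at both later times. Basal epithelial markers summed to 0.0681 to 0.229 CPM, from KRT14 and TP63 only, since KRT5 was not in the data by that name. Leukocyte markers summed to 0.0130 to 0.220 CPM, with both later groups below the 0.204 to 0.220 CPM at 0 h. Fibroblast markers summed to 21.3 to 24.0 CPM, of which COL1A1 gave 18.9 to 21.3 and DCN at most 0.0681, and the fibroblast sums at 24 h, 21.3 to 21.9 CPM, lay below those at 0 h, 22.5 to 22.7 CPM. Endothelial markers, nearly all VWF, summed to 14.8 to 17.3 CPM at 0 h, 13.5 to 15.2 CPM at 12 h and 11.2 to 13.3 CPM at 24 h, with 24 h below 0 h. PECAM1 and CDH5, which define endothelial cells, gave at most 0.0272 and 0.0573 CPM. The part of these shifts in the changes of the 9 genes was not tested. A count of 0 would allow up to 0.0310 to 0.0413 CPM in these libraries, taking 3 counts as the limit, which covers counting error only.

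ERN1 (ENSG00000178607.17, GRCh38 chr17:64039080-64130819, minus strand) gave 100.7 and 93.9 CPM in the libraries at 0 h. It gave 69.1, 61.9 and 73.4 CPM at 12 h and 53.2, 56.4 and 55.5 CPM at 24 h. The 3 groups were fully separated, with each library lower than every library of the time before. ERN1 was lower at 12 h (log2 -0.51, SE 0.057, adjusted p 2.19e-07 by edgeR) and fell by 43.5% at 24 h (log2 -0.82, SE 0.057, adjusted p 4.18e-12 by edgeR). The step from 12 h to 24 h was smaller and still passed (log2 -0.31, SE 0.052, adjusted p 0.000562 by edgeR). ERN1 calls held under every alternative setting tried, left-out libraries included. The exons of ERN1 share 2.36% and 2.26% of their bases with 2 noncoding genes on the other strand, and the counting is not stated to use strand. The gene with 2.26% held 18 counts over the 8 libraries, and no count was matched for the other. ERN2, which encodes the gut form of the same sensor, was too rare in LNCaP to be tested.

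EIF2AK3 (ENSG00000172071.15, chr2:88556741-88691518, minus strand) gave 66.5 and 63.3 CPM at 0 h. It gave 50.3, 52.3 and 53.2 CPM at 12 h and 42.2, 48.3 and 50.4 CPM at 24 h. Both later groups lay below 0 h, but the 12 h and 24 h libraries overlapped. PERK mRNA was lower at 12 h (log2 -0.32, SE 0.060, adjusted p 0.000337 by edgeR) and fell by 27.7% at 24 h (log2 -0.47, SE 0.060, adjusted p 6.00e-07 by edgeR). The difference between 24 h and 12 h did not pass (log2 -0.15, adjusted p 0.171 by edgeR), with an interval from -0.26 to -0.035. A noncoding gene on the other strand covers 3.77% of the exon bases of EIF2AK3 and shares 15.2% of the 75-base words of its longest transcript, and it held 5 counts over the 8 libraries.

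Within a library, depth cancels from the ratio of counts of 2 genes, and the ratio of ERN1 to EIF2AK3 was 1.51 and 1.48 at 0 h. This ratio was 1.37, 1.18 and 1.38 at 12 h and 1.26, 1.17 and 1.10 at 24 h. The sensor of the splicing branch thus dropped further than the sensor kinase of the translation branch in every treated library, and the 95% intervals of their log2 changes at 24 h, -0.94 to -0.71 for ERN1 and -0.59 to -0.35 for EIF2AK3, did not overlap. The difference between these changes was not tested as such.

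ATF6 (ENSG00000118217.7, chr1:161766298-161977574, plus strand) gave 112 and 104 CPM at 0 h. It gave 90.3, 87.3 and 92.2 CPM at 12 h and 83.1, 86.8 and 90.1 CPM at 24 h. Both later groups lay below 0 h and overlapped each other. ATF6 fell by 16.7% at 12 h (log2 -0.26, SE 0.050, adjusted p 0.000458 by edgeR) and fell by 19.7% at 24 h (log2 -0.32, SE 0.050, adjusted p 1.84e-05 by edgeR), and 24 h against 12 h gave -0.053 (adjusted p 0.678 by edgeR; 95% interval -0.15 to 0.039). Without 0 h replicate 1, the higher library of its group, the adjusted p at 12 h was 0.0530, and over all alternatives it lay between 2.37e-05 and 0.0530.

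ATF6B (ENSG00000213676.13, chr6:32115264-32128253, minus strand), the least abundant of the 9 in CPM, gave 23.9 and 26.7 CPM at 0 h. It gave 25.9, 22.5 and 24.3 CPM at 12 h and 23.1, 25.5 and 24.5 CPM at 24 h. The groups overlapped at every time. Its log2 changes were -0.061 at 12 h (adjusted p 0.674 by edgeR; 95% interval -0.20 to 0.084) and -0.053 at 24 h (adjusted p 0.701 by edgeR; 95% interval -0.20 to 0.091), so a fall of the size seen for ATF6 at 24 h, -0.32, lies outside its interval. With 1796 to 2469 counts in a library, counting error is not what limits this value. ATF6B shares 1.96% of its exon bases with TNXB and 7.96% with a noncoding gene, both on the same strand, so they may share reads. The ratio of ATF6 to ATF6B counts was 4.71 and 3.87 at 0 h, 3.48, 3.87 and 3.80 at 12 h, and 3.60, 3.40 and 3.68 at 24 h. That ratio was far apart in the 2 libraries at 0 h, and the lower of them lay beside the highest treated library.

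XBP1 (ENSG00000100219.16, chr22:28794555-28800597, minus strand) was the most abundant of the 9 genes, at 488 and 457 CPM at 0 h. It gave 420, 402 and 420 CPM at 12 h and 352, 385 and 386 CPM at 24 h. No library of a later time reached the lowest library of the time before. XBP1 fell by 12.4% at 12 h (log2 -0.19, SE 0.046, adjusted p 0.00517 by edgeR) and fell by 20.8% at 24 h (log2 -0.34, SE 0.046, adjusted p 2.03e-06 by edgeR). The 12 h call was lost without 0 h replicate 1 (adjusted p 0.191, the highest over the alternatives, whose lowest was 0.00144), and the 24 h call held in all 14 alternatives. Between 24 h and 12 h XBP1 stood at the threshold, with a log2 change of -0.15 and an adjusted p of 0.0511 by edgeR. It passed in 11 of 15 alternatives, where the adjusted p ran from 0.0151 to 0.379. The pseudogene XBP1P1 held 116 counts over all 8 libraries, against 28318 to 42986 for XBP1 in a single library.

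The deposited value for XBP1 counts its spliced and unspliced mRNA together, so the forms before and after the cut by IRE1-alpha cannot be told apart in it. The segment that IRE1-alpha removes is shown because it is what links ERN1 to XBP1. As annotated in GENCODE 44, it spans chr22:28796128-28796153 on GRCh38 and lies on the minus strand. It is inside coding exon sequence of 3 of the 6 XBP1 transcripts and is skipped in 1. In the sequence, read from the GRCh38 genome at chr22:28796103-28796178, capitals mark the 26 bases that this annotation skips. Their edges could be moved by up to 6 bases with the same spliced product, so the capitals do not give the exact cut sites.
XBP1 intron: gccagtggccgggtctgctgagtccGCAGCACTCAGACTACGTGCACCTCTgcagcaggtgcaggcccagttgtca
The number of bases removed is not a multiple of the codon length, so the reading frame downstream changes with the cut. The ratio of total XBP1 counts to ERN1 counts was 4.85 and 4.86 at 0 h, 6.08, 6.49 and 5.72 at 12 h, and 6.61, 6.84 and 6.94 at 24 h. Every treated library held more XBP1 mRNA for each ERN1 mRNA count than either library at 0 h, and the 12 h and 24 h libraries did not overlap.

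Promoters of the 9 genes were searched for the elements that these factors are known to bind, in RefSeq windows on GRCh38.p14 that run from 250 bases before to 50 bases after a start. All 9 genes matched, with 11 windows. The ER stress response element (ERSE), bound by ATF6 and XBP1, was searched as CCAAT, 9 bases of any kind and CCACG, on both strands. It occurred in 27 of 35116 windows of the table (0.0769%) and, among the 9 genes, in XBP1 alone. The stretch at chr22:28800598-28800646, minus strand, is shown with the element in capitals. Its capitals lie at -52 to -34 from the RefSeq start.
XBP1 promoter: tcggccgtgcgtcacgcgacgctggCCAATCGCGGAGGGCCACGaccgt
The shorter CCACG, which also ends the ERSE, lay in 6 of the 11 windows and 5 of the 9 genes (XBP1, EIF2AK3, WFS1, CREB3L2 and MBTPS1), against 38.1% of all windows. ACGTGG, the core bound by spliced XBP1, lay only in the EIF2AK3 window, downstream of its start, against 9.72% of all windows. The element of ATF4, searched as TGATG, 1 base of any kind and AA, lay only at an alternative start of CREB3L2, against 3.62% of all windows. ERN1, ATF6, ATF6B and MBTPS2 held none of the 4, which says only that these letters are not in those windows.

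CREB3L2 (ENSG00000182158.15, chr7:137874979-138002086, minus strand) gave 187 and 184 CPM at 0 h. It gave 167, 175 and 183 CPM at 12 h and 143, 150 and 147 CPM at 24 h. The highest 12 h library lay just under 0 h, and the 24 h libraries lay below all others. The change at 12 h did not pass (log2 -0.082, SE 0.046, adjusted p 0.294 by edgeR; 95% interval -0.18 to 0.012). CREB3L2 fell by 16.3% between 12 h and 24 h (log2 -0.26, SE 0.041, adjusted p 0.000322 by edgeR) and fell by 20.9% between 0 h and 24 h (log2 -0.34, SE 0.046, adjusted p 1.82e-06 by edgeR). These calls held under every alternative.

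WFS1 (ENSG00000109501.15, chr4:6269849-6303265, plus strand) gave 78.7 and 82.2 CPM at 0 h. It gave 73.3, 66.5 and 67.8 CPM at 12 h and 59.7, 64.4 and 59.4 CPM at 24 h. The 3 groups did not overlap. WFS1 fell by 14.0% at 12 h (log2 -0.22, SE 0.053, adjusted p 0.00566 by edgeR) and fell by 23.9% at 24 h (log2 -0.39, SE 0.053, adjusted p 1.51e-06 by edgeR). The step between 12 h and 24 h (log2 -0.18, SE 0.048, adjusted p 0.0373 by edgeR) rested on single libraries, since the adjusted p was 0.118 without 12 h replicate 1, 0.0879 without 12 h replicate 3, 0.204 without 24 h replicate 1 and 0.225 without 24 h replicate 3, within 0.0142 to 0.225 over the alternatives. The 12 h call was lost without the unnumbered 0 h library (adjusted p 0.0739; range over the alternatives 0.000653 to 0.0739). A noncoding gene on the other strand shares 5.97% of the exon bases of WFS1 and held 264 counts over the 8 libraries.

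MBTPS1 (ENSG00000140943.17, chr16:84053761-84116942, minus strand), the protease that makes the cut on the lumenal side, gave 85.9 and 88.8 CPM at 0 h. It gave 86.2, 85.3 and 84.5 CPM at 12 h and 82.3, 85.0 and 85.2 CPM at 24 h. At 24 h the 3 libraries lay just under both libraries at 0 h, yet the difference was small (log2 -0.054, adjusted p 0.519 by edgeR; 95% interval -0.15 to 0.042). At 12 h it was -0.034 (adjusted p 0.738 by edgeR; 95% interval -0.13 to 0.062).

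MBTPS2 (ENSG00000012174.12, chrX:21839617-21885423, plus strand), the protease that cuts within the membrane, gave 64.3 and 61.4 CPM at 0 h. It gave 58.0, 66.3 and 62.0 CPM at 12 h and 62.5, 63.5 and 64.3 CPM at 24 h. The groups overlapped at every time. Its log2 change was -0.017 at 12 h (adjusted p 0.895 by edgeR; 95% interval -0.13 to 0.094) and 0.012 at 24 h (adjusted p 0.925 by edgeR; 95% interval -0.099 to 0.12). For both proteases the intervals at 24 h leave out a change of the size of that in ATF6, their substrate. MBTPS2 shares 12.2% of its exon bases with YY2 on the same strand, and YY2 held 2990 counts over the 8 libraries, so the 2 genes may share reads.

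**Figure D2:**
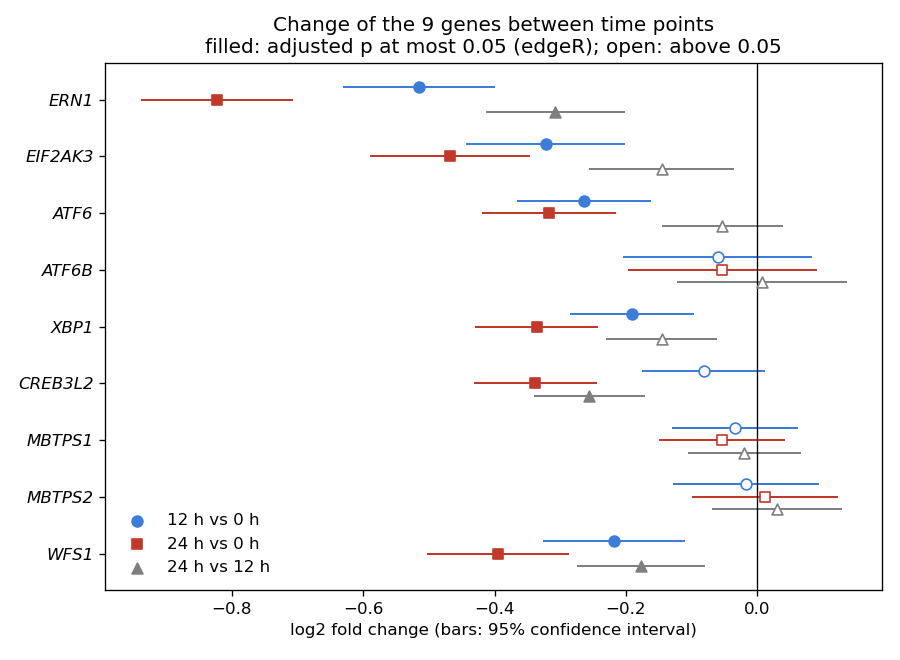
Log2 change (horizontal axis) of each of the 9 genes (vertical axis) between 12 h and 0 h (circles), 24 h and 0 h (squares) and 24 h and 12 h (triangles), with 95% confidence intervals; filled symbols passed an adjusted p of 0.05 by edgeR. ERN1 lies farthest left, at -0.51 and -0.82 against 0 h, and the intervals of ATF6B, MBTPS1 and MBTPS2 cross 0 in each comparison.

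The plot of log2 changes sets these values side by side, and both comparisons with 0 h use the same 0 h libraries. The libraries of 2 times did not overlap for 6 of the 9 genes between 12 h and 0 h (36.9% of all tested genes), for 7 of 9 between 24 h and 0 h (43.2%), and for 4 of 9 between 24 h and 12 h (19.6%). The separated genes at 24 h against 0 h included MBTPS1, which did not pass the test. ERN1, XBP1, CREB3L2 and WFS1 were the 4 whose 24 h libraries all lay below their 12 h libraries.

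Levels of different genes were compared per kilobase (kb) of gene length, once over all exons merged and once over the longest transcript of GENCODE 44, which holds XBP1, MBTPS1 and CREB3L2 under a later identifier version than the file. XBP1 was the highest at 0 h by either length, at 156 or 217 CPM per kb, which is 7.42 or 8.73 times the level of CREB3L2, next in order at 21.0 or 24.9 CPM per kb. WFS1 followed at 12.6 or 21.97 CPM per kb, and MBTPS1 at 8.50 or 19.96. The stress sensors themselves stood lower, with ATF6 at 7.57 or 14.4, ATF6B at 6.97 or 9.64, ERN1 at 5.08 or 10.8 and EIF2AK3 at 3.14 or 13.7 CPM per kb, and MBTPS2 was among them at 7.03 or 14.1. Over merged exons, MBTPS2 and ATF6B overlapped at 0 h, and over the longest transcript ATF6, MBTPS2 and EIF2AK3 did so in neighbouring pairs. The order of the last 3 genes depended on the length, so it is not read further.

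**Figure D3:**
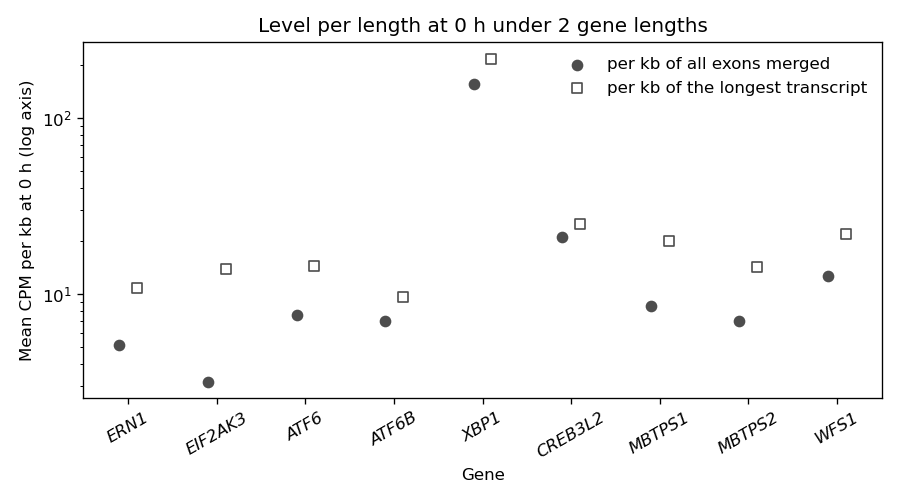
Mean CPM per kb at 0 h (vertical log axis, n = 2) of the 9 genes (horizontal axis) by merged exon length (circles) and by the length of the longest transcript (squares). XBP1 lies at 156 and 217 CPM per kb and the other 8 genes between 3.14 and 24.9.

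Partners and targets of the 3 branches were described through 6 lists of 65 genes in all. The IRE1 arm list held the ligase that rejoins XBP1 mRNA (RTCB and its partners), adaptors and regulators of the sensor, and 11 of its 12 genes were tested. Only PDIA6, an ER disulfide isomerase that acts on IRE1-alpha, was lower at 12 h and at 24 h, and 0 genes passed between 24 h and 12 h by edgeR or DESeq2, with 1 lower at an unadjusted p under 0.05. PDIA6 gave 642 and 592 CPM at 0 h, 526, 547 and 540 CPM at 12 h, and 483, 512 and 505 CPM at 24 h (24 h against 0 h: log2 -0.30, SE 0.044, adjusted p 4.40e-06 by edgeR). It shares 25.2% of its exon bases with ATP6V1C2 on the other strand, which held 635 counts over the 8 libraries. ZBTB8OS, a helper of the ligase, had a log2 change of -0.17 at 24 h that did not pass (adjusted p 0.119 by edgeR). The median of the list was -0.072 at 12 h and -0.050 at 24 h. None was higher at 12 h or 24 h against 0 h by edgeR or DESeq2, with 1 higher in each at an unadjusted p under 0.05. The 1 lower gene of 11 stands beside 6.75% of all tested genes lower at 12 h and 8.49% at 24 h, so nothing is read from this count. Without 0 h replicate 1 the list had 0 genes past the threshold at 12 h, and without the unnumbered 0 h library it had 2 at 12 h and 2 at 24 h.

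The PERK list held the other eIF2-alpha kinases, eIF2-alpha itself, its phosphatase subunits and the ATF4 branch, and all 12 genes were tested. At 12 h, 8 were lower and 1 was higher, with a median log2 change of -0.19. At 24 h against 0 h the counts were also 8 and 1, with a median of -0.28. The 8 lower genes were not all the same, since EIF2AK2 passed only at 12 h. PPP1R15A, named after its values were seen, passed only at 24 h (adjusted p 0.491 at 12 h and 0.0138 at 24 h by edgeR). Over all tested genes, 6.75% were lower and 4.85% higher at 12 h, 8.49% and 7.82% at 24 h, and 1.61% lower between 24 h and 12 h. Between 24 h and 12 h, 4 were lower and 0 higher by edgeR, with 0 higher by DESeq2 and 1 at an unadjusted p under 0.05. Without 0 h replicate 1 the list had 3 genes past the threshold at 12 h and 5 at 24 h, and without 24 h replicate 1 it had 2 between 24 h and 12 h. DDIT3, which encodes the stress factor CHOP, gave 81.8 and 75.7 CPM at 0 h, 62.0, 51.4 and 57.5 CPM at 12 h, and 38.5, 41.3 and 38.6 CPM at 24 h. Each group of DDIT3 lay fully below the one before (24 h against 0 h: log2 -0.996, SE 0.061, adjusted p 2.33e-13 by edgeR). MARS1, transcribed from the opposite strand with 203927 counts, covers 27.2% of the exon bases of DDIT3, so DDIT3 alone is an uncertain measure. TRIB3, a pseudokinase induced by ATF4 and CHOP, went from 449 and 420 CPM at 0 h to 242, 256 and 253 CPM at 24 h (log2 -0.80, SE 0.057, adjusted p 9.70e-11 by edgeR). ATF4 itself moved less, with log2 changes of -0.16 at 12 h (adjusted p 0.0151 by edgeR) and -0.30 at 24 h (adjusted p 5.08e-06 by edgeR). The 1 gene that was higher, named after its value was seen, was EIF2AK4 (GCN2, the kinase that senses amino acid shortage), from 108 and 113 CPM at 0 h to 125, 129 and 126 CPM at 24 h (log2 0.19, SE 0.046, adjusted p 0.00285 by edgeR). This 1 of 12 genes stands beside 7.82% of all tested genes higher at 24 h against 0 h. Of the other eIF2-alpha kinases in the list, EIF2AK1 had log2 changes of 0.0028 at 12 h and 0.0061 at 24 h (adjusted p 0.979 and 0.953 by edgeR), and EIF2AK2 was lower at 12 h (log2 -0.17, SE 0.056, adjusted p 0.0419 by edgeR) with -0.051 at 24 h (adjusted p 0.625 by edgeR).

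Other substrates of the 2 proteases and regulators of the sterol factors made up the next list, of which 11 of 12 genes were tested. At 12 h 2 were higher and 0 lower by edgeR and DESeq2 (1 lower at an unadjusted p under 0.05), and at 24 h against 0 h 1 was higher and 3 were lower. The shares of all tested genes were 4.85% higher and 6.75% lower at 12 h, and 7.82% and 8.49% at 24 h. Between 24 h and 12 h, 1.61% of all tested genes were lower. INSIG1, which retains sterol factors in the ER, gave 571 and 506 CPM at 0 h, 547, 553 and 511 CPM at 12 h, and 448, 456 and 482 CPM at 24 h, so its fall came after 12 h (24 h against 12 h: log2 -0.22, SE 0.044, adjusted p 0.00317 by edgeR). SPRING1, a partner that MBTPS1 needs for its activity, was lower at 24 h by -0.20 (SE 0.049, adjusted p 0.00313 by edgeR). Genes of this list named after their values were seen were SREBF1, higher by 0.25 at 12 h and 0.17 at 24 h, CREB3L4, higher by 0.16 at 12 h, and CREB3, with a log2 change of -0.16 at 24 h. CREB3L4 and INSIG1 were the 2 that were lower between 24 h and 12 h, where 0 were higher by edgeR, by DESeq2 or at an unadjusted p under 0.05. CREB3L4 shares exon bases with SLC39A1 and JTB, CREB3 with GBA2 and SREBF1 with RAI1, each on the other strand. These counts were fragile. Without 0 h replicate 1 the list had 1 gene past the threshold at 12 h and 0 at 24 h. It also had 1 at 12 h when 12 h replicate 1 or any of the 3 libraries at 24 h was left out or when 0 h and 12 h alone were fitted, and without 24 h replicate 1 it had 2 at 24 h against 0 h and 1 at 24 h against 12 h.

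Every listed target gene of XBP1 and ATF6 was lower at 24 h than at 0 h in the main fit. The lists were chosen with earlier results of these data known, and not every call against 0 h held when a library was left out. Of 12 XBP1 targets, 12 were lower at 12 h and 12 at 24 h, with medians of -0.30 and -0.53, and 9 were lower between 24 h and 12 h. Of 10 ATF6 targets, 9 were lower at 12 h, 10 at 24 h and 8 between the later times, with medians of -0.30, -0.62 and -0.33. These counts stand beside 6.75%, 8.49% and 1.61% of all tested genes lower in the same 3 comparisons. No target of either list was higher in any comparison by edgeR, by DESeq2 or at an unadjusted p under 0.05. SEC24D, a coat protein of vesicles leaving the ER, gave 177 and 164 CPM at 0 h, 126, 120 and 125 CPM at 12 h, and 81.3, 91.5 and 91.0 CPM at 24 h (24 h against 0 h: log2 -0.96, SE 0.051, adjusted p 4.49e-14 by edgeR). EDEM1, which sends misfolded glycoproteins for degradation, had a log2 change of -0.67 at 24 h (SE 0.053, adjusted p 6.46e-11 by edgeR). HSPA5, the chaperone BiP that binds the sensors at rest, gave 4725 and 4467 CPM at 0 h, 3559, 3466 and 3707 CPM at 12 h, and 2526, 2786 and 2796 CPM at 24 h (24 h against 0 h: log2 -0.77, SE 0.044, adjusted p 1.24e-13 by edgeR). HERPUD1, a membrane protein of ER-associated degradation, was lower at 24 h (log2 -0.81, SE 0.049, adjusted p 1.85e-13 by edgeR). The medians of both target lists at 24 h were lower than the median of the 9 genes themselves, -0.34; no test of that difference was run. The XBP1 target count between 24 h and 12 h was 5 without 12 h replicate 3 and 3 without 24 h replicate 1.

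Transcripts that IRE1-alpha has been reported to degrade directly, 7 genes and all tested, formed the last list. At 12 h 0 passed by edgeR and by DESeq2, with 1 higher at an unadjusted p under 0.05. At 24 h against 0 h, 3 were higher and 1 lower, with a list median of 0.12, where 7.82% of all tested genes were higher and 8.49% lower. CD59, a surface inhibitor of complement, went from 40.1 and 40.9 CPM at 0 h to 46.2, 47.0 and 47.8 CPM at 24 h (log2 0.21, SE 0.055, adjusted p 0.00590 by edgeR). COL6A1, a collagen chain, went from 75.4 and 82.8 CPM to 91.6, 87.7 and 90.8 CPM (log2 0.19, SE 0.054, adjusted p 0.0139 by edgeR). The others, named after their values were seen, were SCARA3, higher by 0.71, and SPARC, with a log2 change of -1.09, both under 2 CPM in every library. DESeq2 had 4 higher and 0 lower, with SPARC not passing. Between 24 h and 12 h 0 genes passed by edgeR or DESeq2, with 2 higher and 1 lower at an unadjusted p under 0.05, and 1 passed without 12 h replicate 1 or with the replicate number as a block. The 24 h count of 4 was 0 without 0 h replicate 1 and 2 without the unnumbered 0 h library, 24 h replicate 1 or 24 h replicate 3, so this list is read no further than its values.

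**Figure D4:**
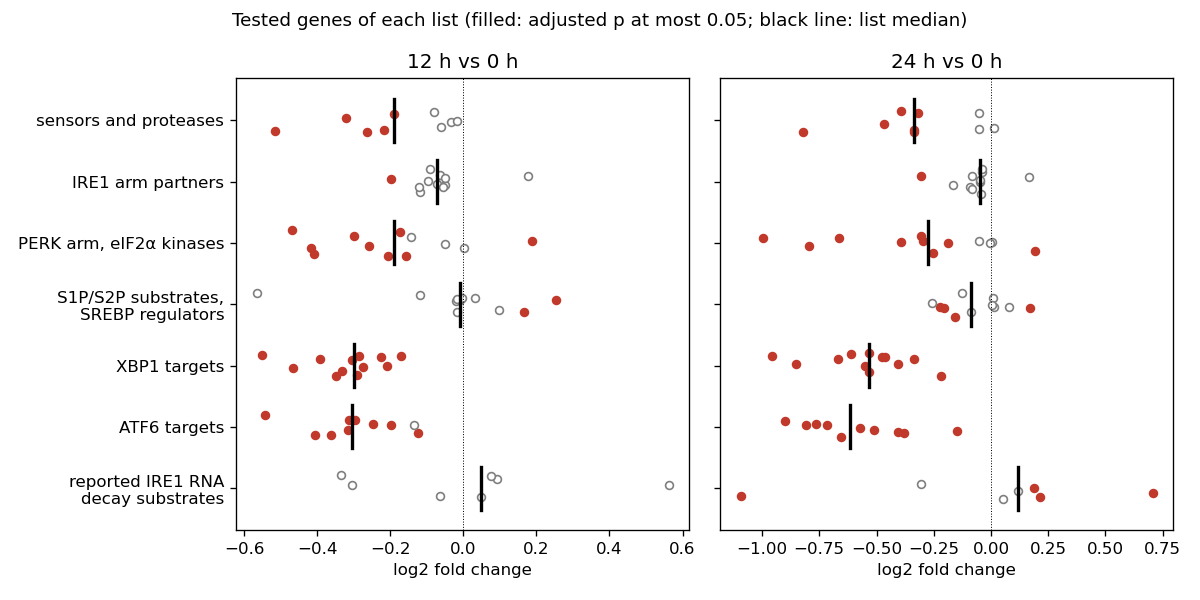
Log2 change (horizontal axes) of each tested gene of the 9 sensors and proteases and of 6 related lists (vertical axis) at 12 h (left) and 24 h (right) against 0 h; each point is a gene, filled where the adjusted p was at most 0.05 by edgeR, and the black line is the list median. The XBP1 and ATF6 targets lie left of 0 with medians of -0.53 and -0.62 at 24 h, and the IRE1 arm partners lie around -0.050.

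The genes whose pattern over the 8 libraries was most like that of ERN1, the member with the smallest p at 24 h, were SESN2 (Pearson r 0.995), CBLB (0.993), COPG1 (0.993), TULP3 (0.991) and EGF (0.991), among 11575 protein-coding genes whose normalized counts averaged 100 or more. These correlations of log2 CPM describe libraries that differ by time, so they follow the shared order of the time points. SESN2 means were 136, 97.4 and 81.0 CPM at 0 h, 12 h and 24 h, and EGF means were 13.6, 11.1 and 9.60 CPM.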

How the data were processed

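Total RNA of LNCaP cells was sequenced in 8 libraries. The authors used Cutadapt for adapter trimming, aligned the reads with STAR to GRCh38.p13, and used featureCounts to count them over GENCODE genes, per the study's methods; the deposited values are raw counts per gene with no normalization. Strand, pair and multi-mapping options are not given in the sources used here. The authors left out a time-0 library for quality. Libraries were grouped by the time in the column names; the other 0 h column carries the number 3, which no 0 h label has, and entered the fits with no number. All sample columns were used.

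Here, counts were tested with edgeR 4.0.16 under R 4.3.3 (robust glmQLFit, glmQLFTest; TMM; filterByExpr; all 8 libraries, 1 coefficient per time, no block), and DESeq2 1.42.0 was an alternative. The biological coefficient of variation was 5.59%. Replicates were compared for duplication by chi-square over genes; divided by its degrees of freedom it was 5.32 to 15.2 in 7 pairs, so each library was counted once. Coordinates equalled those of GENCODE 44 for 30996 of 30996 genes with the same versioned identifier; XBP1, MBTPS1 and CREB3L2 have another version there and are outside this check. The procedure was run on simulated counts in which all genes shared a dispersion and only the 24 h group was changed, so this does not check the calls given here. Standard errors were derived from the fold change and F statistic. Promoter sequences are from RefSeq.

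The 9 genes and the lists were chosen with earlier results of these data known. Genes named were all 9, of each list the 2 with the smallest p at 24 h, HSPA5, ATF4 and DDIT3, and the 5 genes most like the leading member; genes of counts of 5 or fewer were added after their values were seen.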

Additional observations from a re-analysis of the deposited data

How the results depend on the processing

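Alternatives were RLE or upper-quartile factors, dropping the low-count filter or raising it to 100 normalized counts on average, DESeq2, fits to the 2 compared times alone, leaving out each library, and the replicate number as a block between 24 h and 12 h. Of 387 values for single members, 358 kept their direction and side of the threshold, 7 lost and 11 gained a call, and 11 changed sign, none of them a called value; the cause was not tested. The 6 calls at 24 h against 0 h held in all 14 alternatives. Leaving out libraries gave 3 to 5 members past the threshold at 12 h, and 624 to 2761 genes at 12 h against 0 h (main 2443), 1597 to 4047 at 24 h against 0 h (main 3437) and 222 to 730 at 24 h against 12 h (main 574). The lowest counts were 624 and 1597 without 0 h replicate 1, which leaves 1 library at 0 h that is assumed to vary like the others; counts at 24 h against 12 h were 257 without 12 h replicate 3 and 231, 222 and 273 without 24 h replicates 1, 2 and 3.

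Signs changed for members near 0. ATF6B between 24 h and 12 h was -0.00043 with upper-quartile normalization and -0.0017 with the mean filter. Over left-out libraries ATF6B ran from -0.14 to 0.033 at 12 h, from -0.14 to 0.035 at 24 h and from -0.043 to 0.052 between 24 h and 12 h. MBTPS1 ran from -0.058 to 0.0011 at 12 h. MBTPS2 ran from -0.068 to 0.036 at 12 h, from -0.016 to 0.042 at 24 h and from -0.023 to 0.080 between 24 h and 12 h.

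The replicate block gave 865 genes (574 without it) and 4 members (3 without it) between 24 h and 12 h; XBP1 was the addition (adjusted p 0.0227). The main fit was set without a block. Deviations of same-numbered libraries correlated by 0.10, 0.027 and 0.029, and those of differently numbered libraries by -0.077 to 0.052. Not every library correlated best with its own number, and whether the numbers mark pairs was not tested. No block could be fitted against 0 h, where only replicate number 1 is shared.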
